A study of Rattus norvegicus with 4 samples.

Results

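The genes described here belong to families known for enzymes that add or remove acetyl and methyl groups on histones. Not every member acts on histones. Beside them stand genes named for the PHD finger, a small zinc-binding domain that often reads histone tails. All were chosen by symbol, under a rule set with earlier results of these data known. It took genes whose single annotated symbol begins with Kdm, Kmt, Setd, Hdac, Sirt, Phf, Ezh, Prmt or Kat, followed by a digit except after Setd. This gave 76 of 12922 genes, each read from its brightest probe set by mean intensity over the 4 arrays; 24 of them carry more than 1. The series profiled rat aortic smooth muscle cells, grown for 24 h with 10% serum and then kept for 72 h without serum or insulin. For 3 h they were given either the growth factor PDGF-BB, a strong smooth muscle mitogen, at 30 ng/mL (2 Affymetrix arrays), or its vehicle of 0.2% BSA and 10 mM acetic acid (2 arrays). Its stated purpose was to find early genes of phenotypic modulation, the loss of contractile character in these cells. Strain, passage and whether the arrays came from separate cultures are not given in the labels, so p-values here reflect only array-to-array spread, which may be technical. Fewer cells of a type and less RNA per cell cannot be told apart in such samples.

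Histone acetyltransferases open chromatin by neutralising lysines, and histone deacetylases and sirtuins reverse this. Lysine methyltransferases and demethylases write and erase methyl marks that stand for active promoters, enhancers or silenced genes, depending on the lysine. In smooth muscle cells, such marks are known at the contractile genes, where class II deacetylases and Polycomb enzymes among others have been linked to the switch away from the contractile state.

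The arrays had median intensities of 144 and 132 with PDGF-BB, against 144.9 and 148 with vehicle. Among the 76 genes, PDGF-BB replicate 2 was below replicate 1 in 68, a relation seen in 70.9% of all genes. It was seen in 2650 of 3239 genes with mean intensities between 128 and 512, and in 3333 of 3561 between 512 and 2048. The median difference between these 2 arrays was -0.19 on the log2 scale for the 76 genes and -0.09 for all genes. The part of this difference in the results was not tested. Vehicle replicate 2 was below replicate 1 in 31 of the 76, against 45.7% of all genes. Of the smooth muscle markers 12 of 12 were measured, with summed intensities of 76926 and 75136 on the PDGF-BB arrays, against 79474 and 80853 on the vehicle arrays. These sums are carried by very bright genes such as Tpm2 and Acta2, which did not pass. Of the 12, 0 were higher and 4 lower, Lmod1 (-1.70), Smtn (-0.79), Myh11 (-0.70) and Mylk (-0.49), 33.3% against 15.3% of all genes. Above 2048, the range of Smtn and Mylk, 6.89% of all genes were lower. It was 18.5% between 512 and 2048, the range of Lmod1, and 27.5% between 128 and 512, that of Myh11. Myh11 and Mylk have 2 probe sets each, of which 1 was lower. Lmod1 passed whichever array was left out, and the calls of the others ended without vehicle replicate 1 (limma adjusted p 0.0879 to 0.201), vehicle replicate 2 (0.0641 to 0.173) or PDGF-BB replicate 2 (0.0531 to 0.0809). Their part in the results below was not tested. In both groups 5 of 6 endothelial, 6 of 7 leukocyte and 3 of 6 fibroblast markers had mean intensities at or below 80.3, the highest value of 27 Bacillus control probe sets and a rough mark of background. The exceptions included the endothelial marker Esam and the leukocyte marker Cd14, at up to 291 and 1473. The treatment showed in Egr1, an immediate early zinc-finger factor, which had 4540 and 4628 with PDGF-BB, against 882 and 902 with vehicle.

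PDGF-BB raised 6 and lowered 17 of the 76 genes by limma (adjusted p under 0.05), and 53 did not pass. Among all genes, 12.4% were higher and 15.3% lower, so that 30.3% of the chromatin genes passed against 27.7% of all genes. Differences are given on the scale of log2(intensity + 16), PDGF-BB minus vehicle, which understates the change of dim genes. The 6 increases ran between 0.46 and 1.49 and the 17 decreases between -1.69 and -0.43. A call with a change of at least 2-fold was made for 1 increase and 4 decreases, against 8.37% of all genes in either direction. Arrays of the groups did not overlap in 57 genes, 16 higher and 41 lower, against 67.5% of all genes, 29.7% higher and 37.8% lower. At mean intensities between 128 and 512 they did not overlap in 28 of 36 chromatin genes, beside 2540 of 3239 genes at that level. Between 512 and 2048 it was 24 of 33, beside 2935 of 3561. Of these, 23 and 16 chromatin genes were lower, beside 1719 and 1601 of all genes in the 2 ranges. The median difference was -0.14 over the 76 genes and -0.03 over all genes. Between 128 and 512 it was -0.28 for the chromatin genes and -0.17 for all genes. Between 512 and 2048 it was -0.13 and -0.05. The largest increase was that of Kdm1a, a demethylase, and the largest decreases were those of Phf21a, Kat6b and Phf8.

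Calls depend on intensity on these arrays, so the genes were also set beside others of like intensity. Between 128 and 512, 2 of 36 chromatin genes were higher and 12 lower, where 12.2% of all genes at that level were higher and 27.5% lower (39.6% in either direction). Between 512 and 2048, 4 of 33 were higher and 4 lower, where 20.1% of all genes were higher and 18.5% lower (38.6% in either direction). Below 128, 0 of 6 were higher and 1 lower, where 5.13% of all genes were higher and 6.87% lower (12% in either direction). The single gene above 2048, Hdac2, did not pass, where 18.4% of all genes were higher and 6.89% lower (25.3% in either direction). If each intensity range had called these genes at the rate of all genes in it, 11.5 would have been higher and 16.5 lower, beside the 6 and 17 observed. The decreases were near that number and the increases below it. No test was made of either. Unless a range is named, class and list shares and medians below stand beside all genes, dim ones included, and not beside genes of like intensity.

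**Figure D1:**
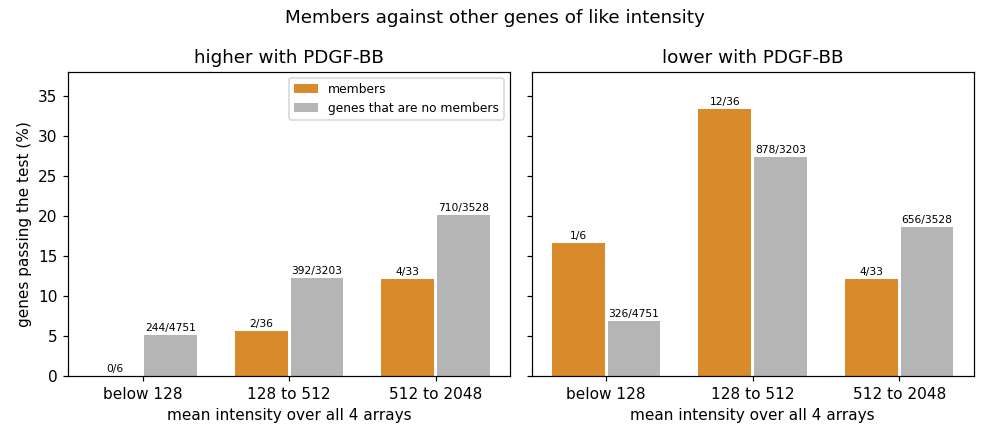
Share of genes passing the test (%, bars, with counts above them) by mean intensity over all 4 arrays, for members and for genes that are no members, higher with PDGF-BB on the left and lower on the right. In the range 128 to 512, 12 of 36 members were lower; the single member above 2048, which did not pass, is not drawn.

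**Figure D2:**
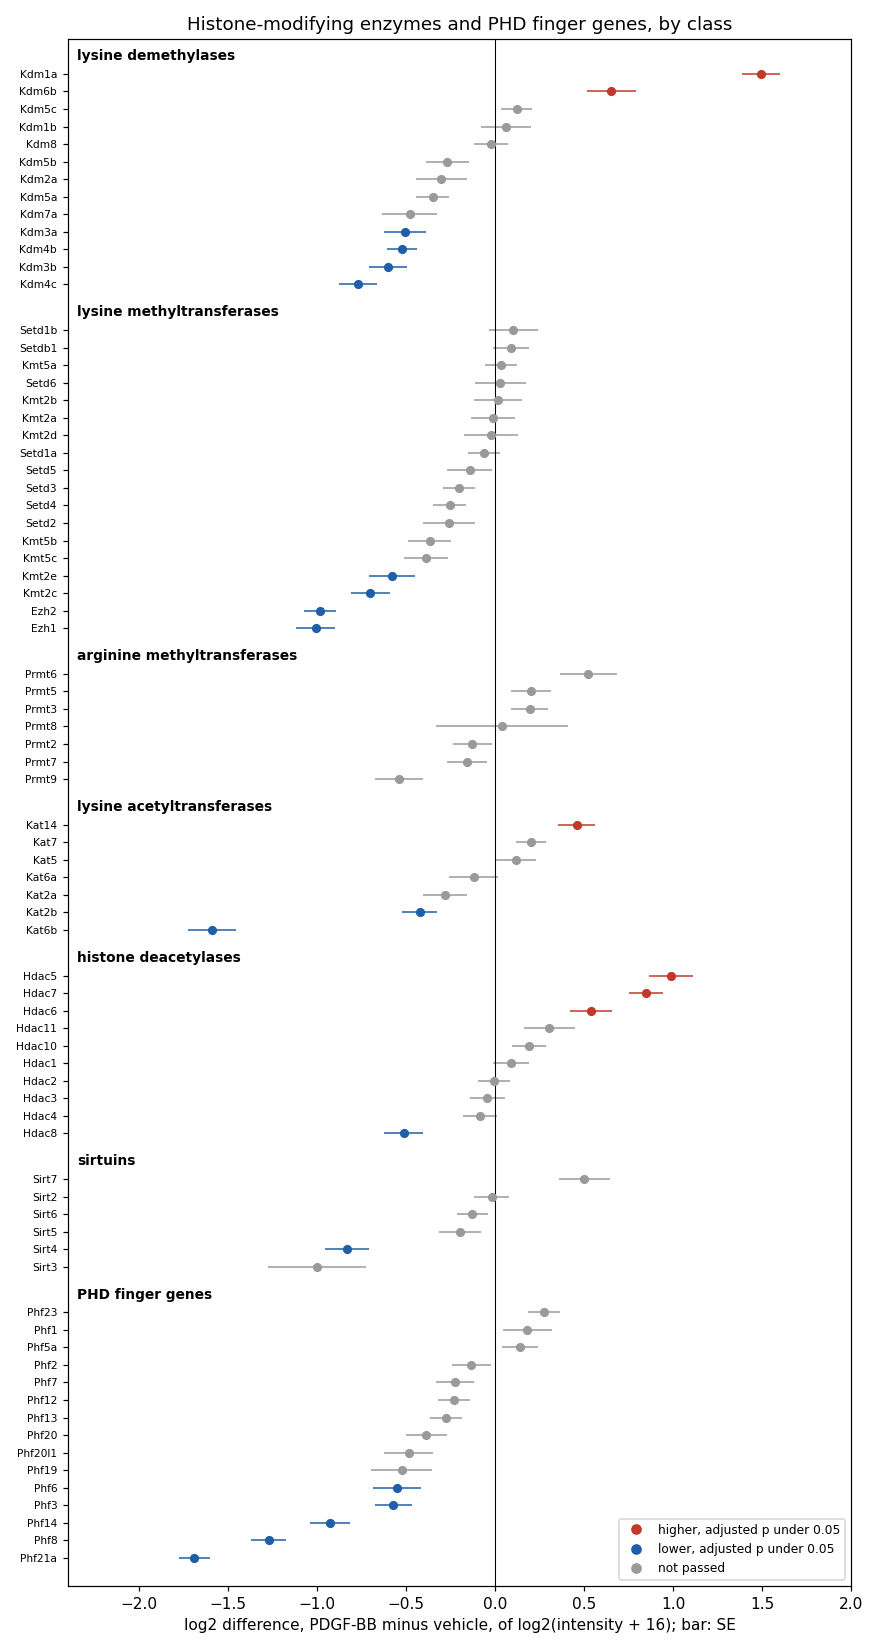
Log2 difference, PDGF-BB minus vehicle, with its SE for each of the 76 genes (rows), grouped by class; colour gives the call. Increases lie among lysine demethylases, lysine acetyltransferases and histone deacetylases, and the 5 calls among PHD finger genes are decreases.

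For genes at the ends of this range, the promoter windows show what the DNA before and around the start site holds. RefSeq windows of 300 bases, 250 before and 50 after each annotated start on the build GRCr8, were at hand for 63 of the 76 genes. Kdm1a is shown as the gene with the largest increase, Ezh2, a Polycomb methyltransferase that fell, as the other called gene with the same motif, and Phf8 as a strongly lowered gene without it. Capitals mark E2F-type words, which are TTTCCCGC, TTTGGCGC, TTTCGCGC and TTTGCCGC, and the GC box GGGCGG, on either strand.
Kdm1a, chr5:154121726-154122025, minus strand: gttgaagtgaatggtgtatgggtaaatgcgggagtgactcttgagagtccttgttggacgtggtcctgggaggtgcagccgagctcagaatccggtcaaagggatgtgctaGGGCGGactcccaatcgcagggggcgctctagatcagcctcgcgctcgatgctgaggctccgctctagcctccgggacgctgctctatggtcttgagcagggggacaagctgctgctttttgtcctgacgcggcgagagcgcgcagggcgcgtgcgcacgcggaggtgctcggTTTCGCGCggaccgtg
Ezh2, chr4:77687134-77687433, minus strand: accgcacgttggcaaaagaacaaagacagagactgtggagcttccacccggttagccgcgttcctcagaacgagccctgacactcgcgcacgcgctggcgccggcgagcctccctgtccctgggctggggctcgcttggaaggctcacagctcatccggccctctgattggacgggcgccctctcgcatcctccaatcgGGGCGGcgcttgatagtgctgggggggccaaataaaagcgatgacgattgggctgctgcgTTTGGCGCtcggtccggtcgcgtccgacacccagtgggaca
Phf8, chrX:23967328-23967627, plus strand: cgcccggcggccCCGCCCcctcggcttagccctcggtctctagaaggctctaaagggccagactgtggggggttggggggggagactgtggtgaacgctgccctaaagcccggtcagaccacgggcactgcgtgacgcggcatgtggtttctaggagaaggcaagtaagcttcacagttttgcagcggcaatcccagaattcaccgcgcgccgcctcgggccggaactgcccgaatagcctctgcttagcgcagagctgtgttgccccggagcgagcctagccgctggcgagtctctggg
The E2F-type word stood at positions 285 to 292 of the Kdm1a window and 260 to 267 of the Ezh2 window, both after the annotated start. Such a word was present in 2.14% of all 33469 windows. It occurred in 1 of the 6 called increases with a window, Kdm1a, in 1 of 14 decreases, Ezh2, and in 3 of 43 genes that did not pass, Kmt5c, Phf19 and Sirt5. Kdm1a and Ezh2 moved in opposite directions. The AP-1 word TGANTCA was found in 0 of the 6 increases and in the decreases Kat6b and Kdm3a. It was in 0 of the 43 genes that did not pass, against 7.33% of all windows. The cyclic AMP element TGACGTCA was found in 0 of the 20 called genes and in 1 of the 43, Prmt9, against 1.83% of all windows. The E-box CACGTG was found in Hdac5 among the increases and in Kdm4b, Kdm4c, Kmt2c and Phf3 among the decreases. Among the 43 it was in 1, Kat5, against 6.42% of all windows. GC boxes were in 4 of 6 increases, 11 of 14 decreases and 30 of 43 genes that did not pass, against 33.1%. Genes with several annotated starts have several windows here, so these counts are per gene and the shares per window. A match describes letters in a window and is no evidence of binding.

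Lysine demethylases changed in 6 of 13 cases, 2 higher (15.4%) and 4 lower (30.8%), where 12.4% of all genes were higher and 15.3% lower. Between 128 and 512, the range of Kdm3a, Kdm4b and Kdm4c, 27.5% of all genes were lower. Between 512 and 2048, the range of Kdm3b, Kdm1a and Kdm6b, 18.5% were lower and 20.1% higher. The largest increase was in Kdm1a, the flavin-dependent demethylase LSD1, which removes the lower methyl states of the promoter mark on lysine 4 of histone H3. Its intensity was 2300 and 2013 on the PDGF-BB arrays, against 745 and 763 on the vehicle arrays. Both PDGF-BB arrays were far above both vehicle arrays, and the log2 difference was 1.49 (SE 0.11, limma adjusted p 0.00284). Kdm1a was also the brightest of the 13 demethylases by its mean over all arrays, 1455, which includes the raised PDGF-BB arrays. With vehicle its mean was 754, below Kdm5a (1513), Kdm5b (1161), Kdm2a (1074) and Kdm3b (865). The other increase was in Kdm6b, also called JMJD3, which erases the Polycomb mark. It had 748 and 602 with PDGF-BB, against 403 and 440 with vehicle, a log2 difference of 0.65 (SE 0.14, limma adjusted p 0.0359). Its PDGF-BB arrays lay further apart than its vehicle arrays but did not overlap with them.

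The 4 decreases lay in the Kdm3 and Kdm4 subfamilies, jumonji enzymes that act on the silencing mark on lysine 9 of histone H3. Kdm4c had 134 and 129 with PDGF-BB, against 219.9 and 253 with vehicle, and fell by 0.77 (SE 0.11, limma adjusted p 0.0122). In Kdm4b the arrays of a group were close, 269 and 270.5 with PDGF-BB, against 393 and 395 with vehicle. It fell by 0.52 (SE 0.08, limma adjusted p 0.0179), and a dimmer probe set did not pass. Kdm3b, at 602 and 527 with PDGF-BB, against 880.2 and 849 with vehicle, fell by 0.60 (SE 0.11, limma adjusted p 0.0225). In these genes the groups did not overlap, and the decreases were of less than 2-fold. Kdm3a fell by 0.51 (limma adjusted p 0.0439).

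The 7 demethylases that did not pass were Kdm5c, Kdm1b, Kdm8, Kdm5b, Kdm2a, Kdm5a and Kdm7a, with log2 differences between -0.48 and 0.12. Kdm1b, the closest relative of Kdm1a, had 234 and 189.8 with PDGF-BB, against 217 and 187 with vehicle, so the groups overlapped. Kdm5a and Kdm5b, which erase the promoter mark, had differences of -0.35 and -0.27 (limma adjusted p 0.0635 and 0.189). Of 5 probe sets of Kdm5b, a dimmer one was higher by 0.38 (limma adjusted p 0.0454) while the brightest had the opposite sign. The call of Kdm1a held whichever array was left out, the highest limma adjusted p being 0.0360. The other 5 calls ended without vehicle replicate 1 (limma adjusted p 0.0655 to 0.188) and without vehicle replicate 2 (0.0935 to 0.227). Without PDGF-BB replicate 1 those of Kdm6b, Kdm3a, Kdm4b and Kdm4c ended (0.0511 to 0.0744) while Kdm7a passed (0.0417), and without PDGF-BB replicate 2 those of the 4 lowered genes ended (0.0573 to 0.110).

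Lysine methyltransferases changed in 4 of 18 cases, and the 4 were lower, a share of 22.2% against 15.3% of all genes. Both catalytic subunits of Polycomb repressive complex 2, which writes the silencing mark on lysine 27 of histone H3, were among them. Ezh1, Ezh2 and Kmt2c lay between 128 and 512, where 27.5% of all genes were lower, and Kmt2e between 512 and 2048 (18.5%). Ezh1 had 315 and 274 with PDGF-BB, against 589.8 and 624 with vehicle, and Ezh2 had 227 and 214, against 459 and 445. The groups were well apart in both genes, near 2-fold, with log2 differences of -1.01 for Ezh1 (SE 0.11, limma adjusted p 0.00704) and -0.98 for Ezh2 (SE 0.09, limma adjusted p 0.00479). A second, dimmer probe set of Ezh1 had a difference of 0.01 (limma adjusted p 0.987), and the mean of both was -0.50 (0.0219).

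The Kmt2 genes of the MLL family, most of which encode enzymes that methylate lysine 4 of histone H3, split. Kmt2c, the enhancer enzyme MLL3, had 267 and 229.8 with PDGF-BB, against 408 and 419 with vehicle, and fell by 0.70 (SE 0.11, limma adjusted p 0.0163). Its dimmer probe set did not pass. Kmt2e, also called MLL5, a PHD and SET protein, was the brightest gene of the class and had 1713 and 1415 with PDGF-BB, against 2274 and 2399 with vehicle. It fell by 0.58 (SE 0.13, limma adjusted p 0.0385), and 4 of its 4 probe sets were lower. In contrast Kmt2a, Kmt2b and Kmt2d had differences of -0.01, 0.01 and -0.02 (limma adjusted p 0.962, 0.959 and 0.931), with overlapping arrays. Whether they differ from Kmt2c and Kmt2e in response was not tested.

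The other methyltransferases did not pass. The 8 Setd genes, among them the promoter enzymes Setd1a and Setd1b, the elongation-linked Setd2 and the heterochromatin enzyme Setdb1, had differences between -0.26 and 0.10. Kmt5a, Kmt5b and Kmt5c, which methylate histone H4, had 0.03, -0.37 and -0.39 (limma adjusted p 0.834, 0.0988 and 0.0923). The 4 calls ended without vehicle replicate 1 (limma adjusted p 0.0568 to 0.163) and without vehicle replicate 2 (0.0513 to 0.194). Those of Kmt2c and Kmt2e also ended without PDGF-BB replicate 2 (0.0514 and 0.0809).

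Arginine methyltransferases passed in 0 of 7 cases by limma, against 27.7% of all genes. At an unadjusted limma p under 0.05 there were 2 of the 7, Prmt6 and Prmt9, beside 5365 of all 12922 genes. Prmt2, the brightest, had 833 and 778 with PDGF-BB, against 825 and 943 with vehicle, with overlapping groups and a difference of -0.13 (SE 0.11, limma adjusted p 0.470). Prmt5, the main enzyme of symmetric arginine methylation, had 917 and 797, against 714 and 768, a difference of 0.20 (limma adjusted p 0.273). Prmt9 had -0.54 (limma adjusted p 0.0532) and Prmt6 0.52 (0.0854), whose vehicle mean of 79.0 was at background. Without PDGF-BB replicate 2, Prmt6 passed (limma adjusted p 0.0473). Prmt3 and Prmt7 had 0.19 and -0.16, and Prmt8, known as a brain enzyme, was at background on the 4 arrays. Under cyclic loess or quantile normalization 3 of the 7 passed, where 33.8% and 37% of all genes did.

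Lysine acetyltransferases changed in 3 of 7 cases, 1 higher (14.3%) and 2 lower (28.6%), beside 12.4% and 15.3% of all genes. Kat6b, the MYST-family enzyme MORF, had 153 and 119.8 with PDGF-BB, against 439.8 and 440.5 with vehicle. This was a decrease of about 3-fold with the groups far apart and a log2 difference of -1.59 (SE 0.14, limma adjusted p 0.00422). Both dimmer probe sets of Kat6b were lower too, with differences of -1.82 and -1.61. Its paralogue Kat6a, by contrast, had 856 and 686, against 866 and 805, a difference of -0.12 (SE 0.14, limma adjusted p 0.590). The difference between the paralogues was not tested.

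Kat2b, the coactivator PCAF, was the brightest gene of the class, with 1331 and 1235 with PDGF-BB, against 1667 and 1789 with vehicle. It fell by 0.43 (SE 0.10, limma adjusted p 0.0434). Kat14, a subunit of the ATAC acetyltransferase complex, had 494 and 518 with PDGF-BB, against 388 and 342 with vehicle, and rose by 0.46 (SE 0.11, limma adjusted p 0.0434), with both probe sets higher. The changes of Kat2b and Kat14 were small beside that of Kat6b. Kat7, Kat5, Kat6a and Kat2a did not pass, with differences between -0.28 and 0.20. Kat6b passed whichever array was left out (limma adjusted p at most 0.0410). Kat2b and Kat14 missed the threshold in each of these 4 fits, their limma adjusted p being 0.181 and 0.139 when vehicle replicate 1 was left out, 0.250 and 0.244 when vehicle replicate 2 was, 0.0712 and 0.0958 when PDGF-BB replicate 1 was, and 0.112 and 0.132 when PDGF-BB replicate 2 was.

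Histone deacetylases changed in 4 of 10 cases, 3 higher and 1 lower, where 12.4% and 15.3% of all genes were so called. The 3 increases were class II enzymes. Hdac5, a class IIa enzyme that shuttles between nucleus and cytoplasm and represses MEF2 factors, had 748 and 621 with PDGF-BB, against 328 and 345 with vehicle. Its log2 difference was 0.99 (SE 0.12, limma adjusted p 0.00986), and its dimmer probe set was higher by 0.35 (0.0498). Hdac7, a class IIa enzyme known in blood vessels, had 876 and 796 with PDGF-BB, against 455 and 459 with vehicle, and rose by 0.85 (SE 0.10, limma adjusted p 0.00762). Hdac6, a class IIb enzyme that deacetylates tubulin in the cytoplasm, had 1104 and 949, against 729 and 674, and rose by 0.54 (SE 0.12, limma adjusted p 0.0382). In these 3 genes the lower PDGF-BB array was above the higher vehicle array.

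The class IIa gene Hdac4 had 362 and 353 with PDGF-BB, against 364 and 397 with vehicle, a difference of -0.08 (SE 0.09, limma adjusted p 0.580), and the class IIb gene Hdac10 had 0.19 (0.227). A dim probe set of Hdac10, with means of 18.1 and 38.6, was lower, while its brightest was not. Most class I enzymes are the catalytic cores of nuclear corepressor complexes. Hdac2, the brightest of all 76 genes, had 3573 and 3533, against 3461 and 3674, a difference of -0.01 (SE 0.09, limma adjusted p 0.979) whose sign turned under 3 settings. Hdac1 and Hdac3 had differences of 0.09 and -0.04 (limma adjusted p 0.576 and 0.787). Hdac8, a class I enzyme of the cohesin cycle, had 186 and 160.5 with PDGF-BB, against 258 and 249.9 with vehicle, and fell by 0.51 (SE 0.11, limma adjusted p 0.0346). Hdac11 was at background in both groups. The 4 calls ended without vehicle replicate 1 (limma adjusted p 0.0754 to 0.198) and without vehicle replicate 2 (0.0686 to 0.206). That of Hdac6 also ended without PDGF-BB replicate 1 (0.0856), and those of Hdac6 and Hdac8 without PDGF-BB replicate 2 (0.0585 and 0.0795).

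**Figure D3:**
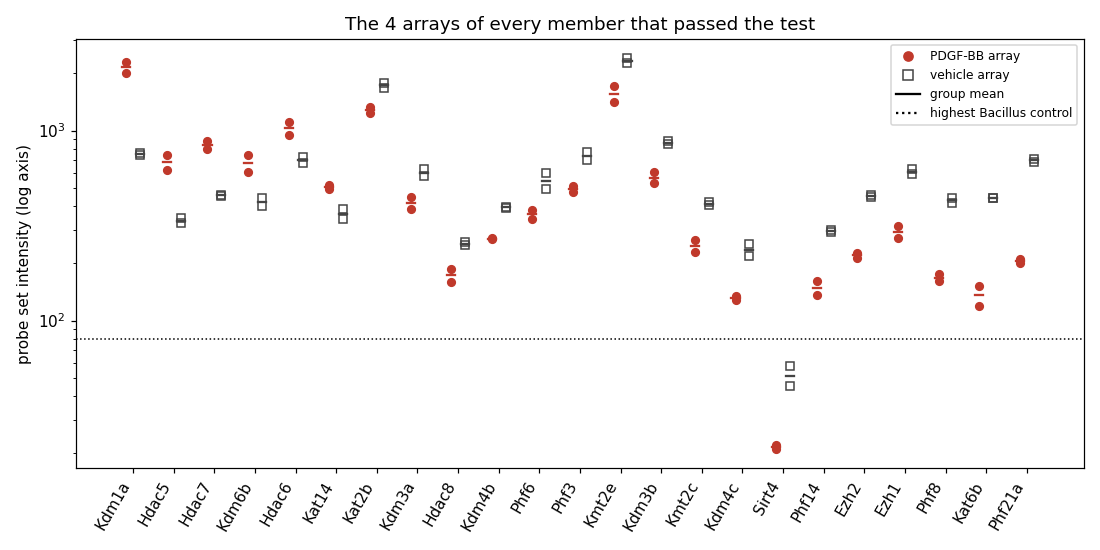
Probe set intensity (log axis) on each PDGF-BB array (red circles) and each vehicle array (open squares) for the 23 genes that passed, ordered by log2 difference; short lines are group means, and the dotted line is the highest Bacillus control, 80.3. The groups do not overlap in any of the 23 genes, and Sirt4 lies below the dotted line on every array.

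Sirtuins, NAD-dependent deacylases, changed in 1 of 6 cases, against 27.7% of all genes, and in 3 with an intensity trend, against 36.5%. Sirt4, a mitochondrial member, was lower (log2 difference -0.83, SE 0.12, limma adjusted p 0.0145), but its values of 21.2 and 22.2 with PDGF-BB, against 45.2 and 57.5 with vehicle, were below the background mark in both groups. Sirt4 missed the threshold when any array was left out (limma adjusted p 0.0549 to 0.0888). Sirt5, another mitochondrial enzyme and the brightest sirtuin, had 1285 and 1123 with PDGF-BB, against 1306 and 1454 with vehicle, a difference of -0.20 (SE 0.12, limma adjusted p 0.307). The mitochondrial deacetylase Sirt3 had 141 and 75.3, against 218 and 229. Its log2 difference was about as large as those of Ezh1 and Ezh2, but its PDGF-BB arrays lay far apart (SE 0.28, limma adjusted p 0.0671). Without PDGF-BB replicate 1 it passed (0.0287). The nucleolar enzyme Sirt7 had 0.50 (limma adjusted p 0.0725), and Sirt2 and Sirt6 had -0.02 and -0.13.

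PHD finger genes changed in 5 of 15 cases, and the 5 were lower, 33.3% against 15.3% of all genes. Phf6, Phf14, Phf8 and Phf21a lay between 128 and 512, where 27.5% of all genes were lower, and Phf3 between 512 and 2048 (18.5%). In 12 of the 15 both PDGF-BB arrays were below both vehicle arrays, a state found in 37.8% of all genes. It was found in 1719 of 3239 genes between 128 and 512 and in 1601 of 3561 between 512 and 2048. The class median was -0.39. With dim probe sets left out 9 of the 14 still tested passed, where 53.7% of all genes did, and with an intensity trend 8 of 15, where 36.5% did. The largest decrease of the 76 genes was that of Phf21a, also called BHC80, a subunit of the LSD1 complex that binds unmethylated histone H3 tails. It had 210.4 and 200.1 with PDGF-BB, against 684 and 711 with vehicle, about 3-fold lower, with a log2 difference of -1.69 (SE 0.09, limma adjusted p 0.00148). Its dimmer probe set was lower by 1.18 as well, so that 2 of 2 passed. Kdm1a, the catalytic subunit of the same complex, went the other way, as given above.

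Phf8, an X-linked jumonji demethylase with a PHD finger, had 176 and 161 with PDGF-BB, against 418 and 441 with vehicle. It fell by 1.27 (SE 0.10, limma adjusted p 0.00335). Phf14 had 161 and 136, against 298 and 294, and fell by 0.93 (SE 0.11, limma adjusted p 0.00890), with both probe sets lower. In these genes the spread within a group was small beside the distance between the groups. Phf3, which binds the tail of RNA polymerase II, had 508 and 474, against 699.9 and 776, and fell by 0.57 (SE 0.10, limma adjusted p 0.0234); its other probe set, near background, was lower too. Phf6, a nucleolar protein mutated in an X-linked disability syndrome and in leukaemia, had 384 and 343, against 490.1 and 595, and passed narrowly with -0.55 (SE 0.13, limma adjusted p 0.0497).

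Of the 10 PHD finger genes that did not pass, 3 had positive differences. Phf23, the brightest, had 2299 and 2163 with PDGF-BB, against 1820.1 and 1869 with vehicle, a difference of 0.27 (SE 0.09, limma adjusted p 0.103). It passed with array medians subtracted (0.0330), with dim probe sets left out (0.0335) and with an intensity trend (0.0114). Phf5a, a splicing factor subunit, and Phf1, a Polycomb partner, had 0.14 and 0.18. The remaining 7, Phf2, Phf7, Phf12, Phf13, Phf20, Phf20l1 and Phf19, had differences between -0.52 and -0.14. A dim probe set of Phf7 was lower while its brightest did not pass. The calls of Phf21a and Phf8 held whichever array was left out (limma adjusted p at most 0.0269 and 0.0402). Those of Phf3, Phf6 and Phf14 ended without vehicle replicate 1 (0.0764 to 0.109) and without vehicle replicate 2 (0.0710 to 0.228). Those of Phf3 and Phf6 also ended without PDGF-BB replicate 1 (0.0615 and 0.103) and without PDGF-BB replicate 2 (0.0869 and 0.170).

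Probe sets of 1 gene share the RNA and the arrays, so they check the probes and not the biology. Of the 23 genes that passed, 10 are read by more than 1 probe set, and for 7 every one passed in the same direction: Kat14, Hdac5, Kmt2e, Kat6b, Phf3, Phf14 and Phf21a. In Ezh1, Kmt2c and Kdm4b the dimmer probe set did not pass. Among the 14 genes with several probe sets that did not pass by the brightest, a dimmer one passed in Hdac10, Kdm5b and Phf7.

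**Figure D4:**
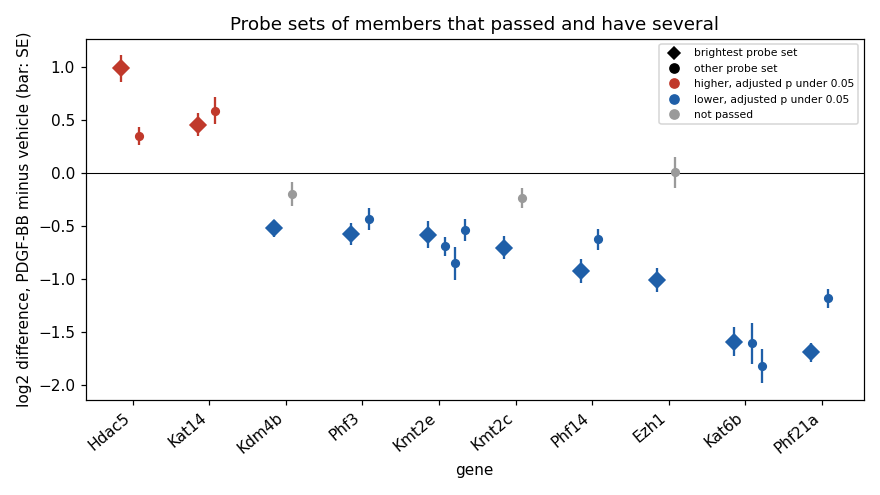
Log2 difference, PDGF-BB minus vehicle, with SE for each probe set of the 10 genes that passed and have several; diamonds are the brightest probe sets, circles the others, colour the call. In 7 genes every probe set passed in the same direction, while the dimmer ones of Ezh1, Kmt2c and Kdm4b did not pass.

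Partners and enzymes with other symbols were examined by lists, drawn up with earlier results of these data known. Their counts stand beside 12.4% higher, 15.3% lower and a median of -0.03 over all genes. Of 20 measured methyltransferases and demethylases with other names, 4 were higher (20%) and 3 lower (15%), with a median of -0.11. Dot1l, the methyltransferase of lysine 79 of histone H3, had 1196 and 1185 with PDGF-BB, against 144.9 and 162 with vehicle. Its log2 difference of 2.83 (SE 0.10, limma adjusted p 0.000710) exceeded in size that of any of the 76 genes. Riox1, a nucleolar jumonji oxygenase, had 1152 and 1069, against 407 and 409, and rose by 1.41 (SE 0.09, limma adjusted p 0.00239). Both passed whichever array was left out.

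Among 17 Polycomb partners, 3 were higher and 3 lower (17.6% each), with a median of -0.13. Pcgf2, a subunit of Polycomb repressive complex 1, had 189 and 127 with PDGF-BB, against 465 and 389.7 with vehicle, and fell by 1.37 (SE 0.21, limma adjusted p 0.0160). Cbx8, a chromodomain subunit of that complex, fell by 1.06 (SE 0.19, limma adjusted p 0.0233) to a mean below background. Eed and Suz12, the core partners of Ezh1 and Ezh2, had differences of 0.51 (limma adjusted p 0.0289) and -0.31 (0.0772), chosen after their values were seen. That of Eed ended when any array was left out (0.0530 to 0.185). Of 10 partners of the MLL enzymes, 2 were higher (20%) and 1 lower (10%), with a median of -0.16. The scaffold Wdr5 had 1229 and 1143, against 653 and 664, and rose by 0.83 (SE 0.09, limma adjusted p 0.00720), and Rbbp5 rose by 0.55 (SE 0.13, limma adjusted p 0.0449), each in 2 of 2 probe sets.

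Of 18 deacetylase corepressor partners, 0 were higher and 5 lower (27.8%) by limma, with a median of -0.14. Rcor2, a CoREST scaffold, had 62.8 and 78.1 with PDGF-BB, against 169.9 and 148 with vehicle, and fell by 1.02 (SE 0.14, limma adjusted p 0.0111). Arid4b, of the Sin3 complex, also fell by 1.02 (SE 0.11, limma adjusted p 0.00673). Rcor1, the better known scaffold of Kdm1a, had 249.9 and 173, against 136 and 163, a difference of 0.44 (SE 0.20, limma adjusted p 0.195), chosen after its value was seen. Of 21 acetyltransferases and partners without the Kat symbol, 0 were higher and 7 lower (33.3%), with a median of -0.33. Ing4, a subunit of the Kat7 complex, had 368 and 321, against 865 and 887, and fell by 1.31 (SE 0.11, limma adjusted p 0.00383). Sgf29, a reader in acetyltransferase complexes, fell by 0.82 (SE 0.12, limma adjusted p 0.0147). Of 16 bromodomain and chromodomain readers, 3 were higher (18.8%) and 5 lower (31.2%), with a median of -0.31. Atad2 and Brd8, bromodomain proteins, fell by 1.21 (SE 0.13, limma adjusted p 0.00696) and 1.05 (SE 0.13, limma adjusted p 0.0102).

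Without vehicle replicate 1 or without vehicle replicate 2, Ing4 passed, and the calls of the other 9 named partners ended. With vehicle replicate 1 left out, limma gave adjusted p-values of 0.0918 for Pcgf2, 0.123 for Cbx8, 0.0749 for Wdr5, 0.203 for Rbbp5, 0.0812 for Rcor2, 0.0644 for Arid4b, 0.0899 for Sgf29, 0.0531 for Atad2 and 0.0708 for Brd8. With vehicle replicate 2 left out, they were 0.0661 for Pcgf2, 0.0982 for Cbx8, 0.0690 for Wdr5, 0.193 for Rbbp5, 0.0586 for Rcor2, 0.0526 for Arid4b, 0.103 for Sgf29, 0.0579 for Atad2 and 0.0755 for Brd8. Without PDGF-BB replicate 1 that of Rbbp5 was 0.0684, and without PDGF-BB replicate 2 those of Pcgf2 and Sgf29 were 0.0527 and 0.0502.

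Across the 23 genes, 4 kept their call whichever array was left out, Kdm1a, Kat6b, Phf8 and Phf21a, and also under the other 9 alternatives. The 23 genes were picked by the fit to all 4 arrays, so how many kept their call is not set against a share of all genes. No sign turned for any of the 23 genes under the 13 alternatives, of which the filter on dim probe sets left Sirt4 untested.

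**Figure D5:**
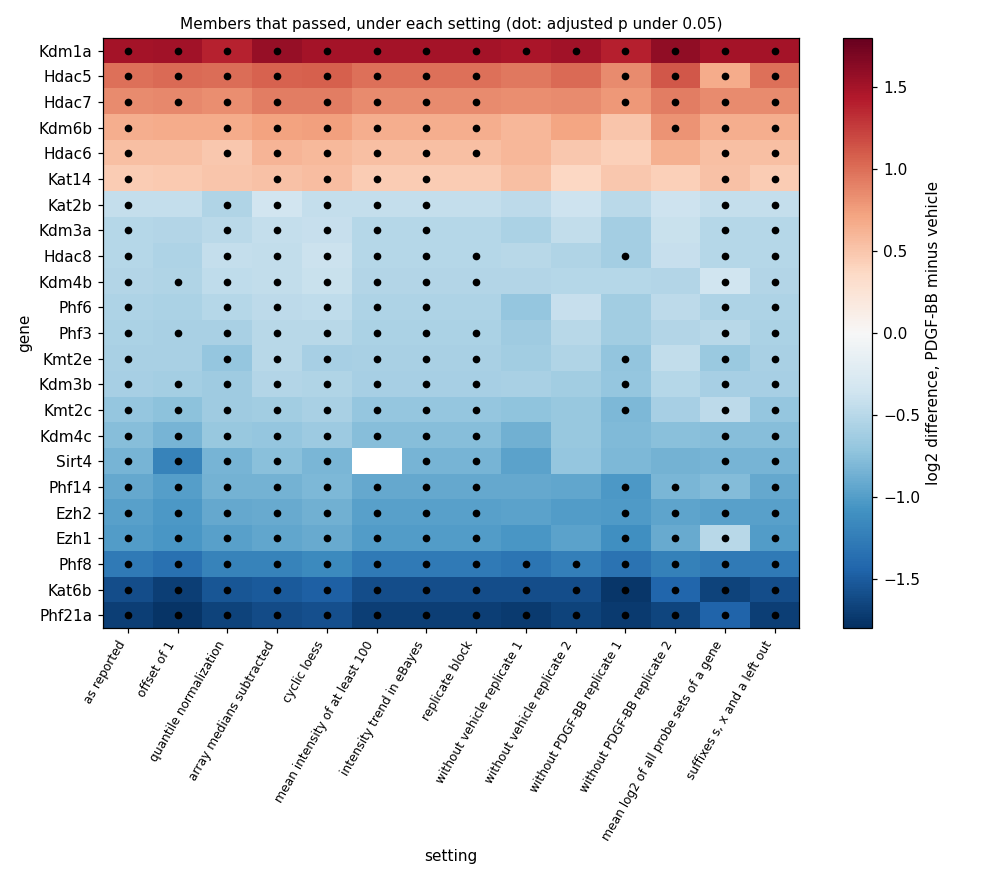
Log2 difference, PDGF-BB minus vehicle (colour), of the 23 genes that passed (rows) as reported and under each of 13 alternatives (columns); a dot marks an adjusted p under 0.05, and the blank cell is Sirt4, removed by the filter on dim probe sets. Kdm1a, Phf8, Kat6b and Phf21a carry a dot in every column.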

How the data were processed

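Intensities of Affymetrix probe sets were deposited by the authors as a table of 4 arrays, on a linear scale as the values show. How they were extracted, background-corrected and scaled is not given in the sources used here. Of 23764 probe sets, 57 Affymetrix controls were removed. GEO's platform annotation gave the other 23707 a single symbol in 17279 cases, several in 373 and none in 6055. Of the 76 members, 75 matched a RefSeq gene identifier, with the same symbol. Probe sets annotated to several symbols were not used.

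Values were tested as log2(intensity + 16), two-sided, by lmFit and eBayes (limma 3.58.1, R 4.3.3). Benjamini-Hochberg adjustment covered the whole set of 23707, with calls at 0.05. There are 2 residual degrees of freedom, and the variance prior had 2.4. The number of arrays limits the precision. In data simulated over 23707 probe sets with 200 of them changed, 8 of 67 changes of 0.5 on the log2 scale were called. Of changes of 1 and 2, 59 of 67 and 66 of 66 were called, as were 4 of 23507 unchanged probe sets. On the real arrays 27.7% of all genes passed, and the cutoff on the unadjusted p depends on that share. The simulated rates are therefore not those of this comparison.

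In each class, up to 5 called genes with the largest difference and the brightest gene were given with every array, and up to 2 called genes per partner list. Other members are given by range or, where named with array values, were chosen after their values were seen. Members, lists and this rule were chosen with earlier results of these data known. Alternatives were another offset, 3 normalizations, a filter on dim probe sets (mean under 100), an intensity trend, a replicate block, leaving out each array, the mean of a gene's probe sets, and leaving out suffixed probe sets.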

Additional observations from a re-analysis of the deposited data

Results flagged for a closer look

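A dimmer probe set of Kdm5b, outside the comparison of brightest probe sets, had a signal above that of vehicle. It was at 140.3 and 139.5 with PDGF-BB, against 101 and 107 with vehicle, a log2 difference of 0.38 (limma adjusted p 0.0454), while the brightest probe set had -0.27 (0.189).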

How the results depend on the processing

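The number of chromatin genes called depended on the processing more than their directions did. The count of increases, 6 as reported, was 3 with an offset of 1 in place of 16, where 9.72% of all genes were higher. It fell whichever array was left out, and so did the share of all genes called higher. Under the other 8 alternatives it lay between 5 and 9, where between 10.6% and 23% of all genes tested were higher. The count of decreases, 17 as reported, was 26 of the 72 still tested when probe sets with a mean under 100 were left out. With that filter 30.7% of all genes were lower, and the cause of the change in count was not tested. The count of decreases fell whichever array was left out, and so did the share of all genes called lower. Under the other 8 alternatives the count of decreases lay between 12 and 25, where between 10.3% and 22.2% of all genes were lower. The median of the 76 genes was -0.06 with array medians subtracted, -0.08 after cyclic loess and -0.16 after quantile normalization; leaving out PDGF-BB replicate 1 gave -0.24, and leaving out the other PDGF-BB array -0.08. Hdac2, which did not pass, had 0.0714 with array medians subtracted and between -0.0483 and 0.0378 when 1 array was left out (0.00293 without PDGF-BB replicate 2), in place of -0.01; the cause was not tested. With the replicate number as a block, 5 genes were higher and 15 lower, beside 10.6% and 12.6% of all genes. Kdm3a, Kat14, Kat2b and Phf6 then missed the threshold. The labels tie no number to a shared culture, and the deviations of same-numbered arrays had a correlation of -0.0978 over 23707 probe sets, so the numbers are not taken as pairs. With a single array in 1 group, the fit assumes that it varies like the other group.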
